A study of Mus musculus with 6 samples.

Results

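The family of miR-34 and miR-449 was followed in fetal liver of mouse embryos with and without the locus of miR-144 and miR-451, an abundant miRNA locus of red cell precursors. The 9 members, all present among the 1626 mature miRNAs of the count table, were selected from that table by name, on the condition that the miRNA is listed there. That condition was met most narrowly by miR-449b, with 3 counts over all libraries, and widely by miR-34a-5p, with 8354 counts, and these levels are given as a description. The family was proposed with earlier results of these data known, so no difference of its members between the genotypes is independent evidence here. The members fall into the miR-449 cluster (mmu-miR-449a-5p, mmu-miR-449a-3p, mmu-miR-449b and mmu-miR-449c-5p), mmu-miR-34a-5p, and the miR-34b/c pair (mmu-miR-34b-5p, mmu-miR-34b-3p, mmu-miR-34c-5p and mmu-miR-34c-3p); the prefix mmu, for mouse, is left out from here on.

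The study sequenced small RNA from fetal liver cells of C57BL/6J embryos, in 3 wild-type (WT) libraries, numbered 1 to 3, and 3 libraries from embryos homozygous for a deletion of the miR-144 and miR-451 locus (KO), numbered 4 to 6. No treatment is named for either group, and the labels give neither the embryonic day nor whether a library came from 1 embryo or a pool. Separate litters are not stated either, and the spread that the p-values rest on is that of the libraries at hand, part of which may be technical. Each library held between 16243894 and 27089133 miRNA counts, and the products of the deleted locus took 17.6% to 24.1% of counts in WT and 0.0214% to 0.0231% in KO, which fits the labels. Levels are counts per 1000000 counts of a library after TMM scaling (CPM), a scaling that sets the typical miRNA equal between libraries.

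The family shares a guide-strand seed, the stretch at the 5′ end by which a miRNA pairs with its target mRNAs, and is known for restraining the cell cycle. miR-34a and miR-34b/c are direct transcriptional targets of p53, the DNA damage response factor. The miR-449 miRNAs are made from an intron of Cdc20b, respond to the cell-cycle factor E2F1, and are known, together with miR-34b/c, for the formation of motile cilia in multiciliated epithelia and for male fertility.

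Mature sequences of 7 of the 9 members were found in RefSeq (GRCm38.p6) and are shown for the part that binds the seed family together and the parts that set members apart. They run 5′ to 3′, with the seed (bases 2 to 8) in capitals.
miR-449a-5p: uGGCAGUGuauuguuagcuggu
miR-449c-5p: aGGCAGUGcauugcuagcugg
miR-34a-5p: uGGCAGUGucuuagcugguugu
miR-34b-5p: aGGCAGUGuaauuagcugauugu
miR-449a-3p: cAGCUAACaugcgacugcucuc
miR-34b-3p: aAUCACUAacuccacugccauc
miR-34c-3p: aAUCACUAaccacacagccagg
The 4 guide arms shown have the seed GGCAGUG, and among the 1679 mature miRNA names of the RefSeq table no others had it. miR-34c-5p and miR-449b have no mature entry there, so the search could not find them. The Mir34c hairpin does hold the stretch GGCAGUG near its 5′ end. The 3p arms of miR-34b and miR-34c share AUCACUA, which no other mature miRNA of that table had, and the 3p arm of miR-449a has a seed of its own, AGCUAAC.

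Outside the seed the sequences shown differ; miR-34c-5p and miR-449b were not compared. Counted from 1 at the 5′ end of miR-449a-5p, miR-449c-5p differs at 3 of 21 positions (U1A, U9C and U14C). miR-34a-5p differs from miR-449a-5p at 7 of 22 positions (A10C, G13A, U14G, U15C, A16U, C18G and G20U), all past the seed. miR-34b-3p and miR-34c-3p differ at 5 of 22 positions. How the authors assigned reads that match more than one miRNA is not given in the sources used here. No pair of members had matching counts throughout: in every pair the counts differed by at least 67.7% of the larger count in at least 1 library. The smallest difference in a library was 1.04% for miR-449a-5p and miR-34a-5p. Differing totals cannot tell whether members shared part of their reads. Outside the family, miR-133a-3p and miR-133b-3p stood at 22.4 and 22.5 CPM in WT library 1 and at equal levels in the other libraries. Whether reads were counted for more than 1 miRNA was not tested.

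The hairpins lie at 3 places in the genome (GENCODE M21, GRCm38, the build of this annotation; that of the authors is not given in the sources used here). Mir449c (chr13:113035983-113036091), Mir449b (chr13:113037419-113037498) and Mir449a (chr13:113037534-113037624) lie within 1642 bases on the plus strand, in intron 2 of all 5 annotated Cdc20b transcripts that span them, on the strand of that gene. Mir34a (chr4:150068454-150068555, plus strand) lies in the single exon of Gm37795, a gene model of the class TEC. Mir34c (chr9:51103034-51103110) and Mir34b (chr9:51103562-51103645) lie within 612 bases on the minus strand, opposite to intron 1 of a Btg4 transcript. The 2 hairpins with the most counts of the family are shown with their mature arms in capitals.
Mir449a: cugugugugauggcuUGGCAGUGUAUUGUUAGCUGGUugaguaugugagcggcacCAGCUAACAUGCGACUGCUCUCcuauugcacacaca
Mir34a: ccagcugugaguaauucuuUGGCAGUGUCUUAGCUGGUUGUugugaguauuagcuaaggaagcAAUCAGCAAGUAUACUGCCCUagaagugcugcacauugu

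In WT fetal liver the family was carried by 2 guides at similar levels, miR-34a-5p and miR-449a-5p. miR-34a-5p stood at 70.4 ± 14.0 CPM (SD, n = 3), rank 272 of all listed miRNAs, and miR-449a-5p at 61.4 ± 9.27 CPM (SD, n = 3), rank 290, with overlapping libraries. miR-34c-5p and miR-449c-5p followed at 8.26 ± 2.92 and 6.20 ± 1.32 CPM (SD, n = 3 each), again overlapping. The 3p arms and miR-34b-5p lay far lower: 1.10 CPM for miR-449a-3p, 0.620 for miR-34b-3p, 0.449 for miR-34b-5p and 0.276 for miR-34c-3p. miR-449b was near the limit of detection, with 3 counts in WT library 2 and 0 counts in the other libraries, where up to 0.115 to 0.166 CPM (3 counts) could have gone unseen. In KO liver the order at the top was clearer. miR-34a-5p stood at 61.0 ± 14.0 CPM (SD, n = 3) and miR-449a-5p at 22.8 ± 6.77 CPM (SD, n = 3), with no overlap between the libraries of these 2 miRNAs.

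**Figure D1:**
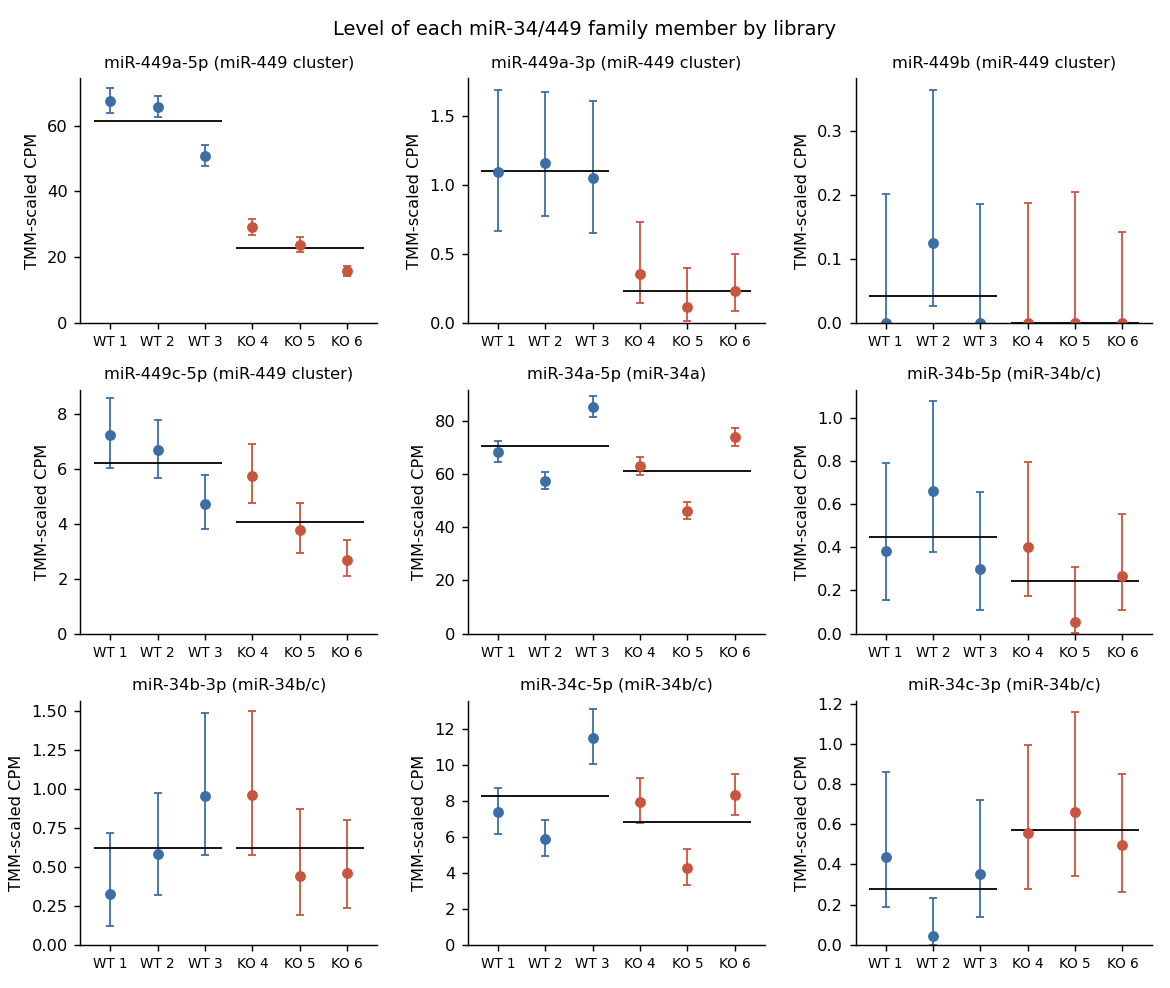
Level of each member (TMM-scaled CPM, linear axis from 0) in the 3 WT (blue) and 3 KO (red) libraries; bars are exact Poisson 95% intervals, which cover counting error only, and black lines are group means. miR-449a-5p lies at 50.8 to 67.7 CPM in WT and 15.7 to 29.1 CPM in KO, while the libraries of miR-34a-5p overlap.

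Over the family as a whole, 7 of the 9 members passed the filter on low counts, and none of the 7 passed the KO against WT test (edgeR quasi-likelihood, Benjamini-Hochberg adjusted p under 0.05 over all miRNAs). The share of all 873 tested miRNAs outside the deleted locus that passed it was 0.458%, and the share that passed lower in KO was 0%. At an unadjusted edgeR p under 0.05, 2 members, the arms of miR-449a, were lower in KO, against 1.37% of tested miRNAs. The filter asks for enough counts in 3 libraries, the size of 1 genotype. miR-449a-3p passed it through its WT libraries only and miR-34c-3p through its KO libraries only, so their edgeR results are a description. The background at that p was 9.62% higher and 11% in either direction. limma-voom called 0 members, and 0.573% of tested miRNAs, all of them higher in KO (0.573%). DESeq2 called 2 members, miR-449a-5p and miR-449a-3p, both lower in KO. Of its 1555 miRNAs it called 0.772% in all, 0.643% higher and 0.129% lower, and the 2 lower ones are these arms. Of the 7 tested members 6 had folds below 0 and 1 above, with a median log2 fold of -0.27, where all tested miRNAs had a median of -0.01 and 52.3% below 0.

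miR-449a-5p, the product of the Cdc20b intron with the most counts, was lower in every KO library than in any WT library. It stood at 67.7, 65.8 and 50.8 CPM in WT libraries 1 to 3, from 1238, 1589 and 1014 counts. The KO libraries 4 to 6 held 29.1, 23.6 and 15.7 CPM, from 578, 428 and 409 counts. The exact Poisson 95% intervals of the nearest pair, 26.8 to 31.6 CPM in KO library 4 and 47.7 to 54.0 CPM in WT library 3, did not meet. These intervals cover counting error only and not the spread between libraries of a genotype.
The WT mean was 2.69 times the KO mean. The log2 fold was -1.43 (SE 0.28, 95% interval -2.09 to -0.77; edgeR unadjusted p = 0.00146, Benjamini-Hochberg adjusted p = 0.106), and 11 of the 873 tested miRNAs had a lower one. DESeq2 gave it an adjusted p of 0.00138. In whole tissue a lower level can come from fewer cells that make a miRNA or from less of it per cell, and these cannot be told apart here.

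The opposite arm of the same hairpin, miR-449a-3p, differed in the same direction at a much lower level. It had 20, 28 and 21 counts in WT, or 1.09, 1.16 and 1.05 CPM. In KO it had 7, 2 and 6 counts, or 0.353, 0.110 and 0.230 CPM. The KO libraries were lower without overlap, and the intervals of single libraries were wide, such as 0.142 to 0.727 CPM in KO library 4 against 0.651 to 1.61 CPM in WT library 3.
The log2 fold was -2.21 (SE 0.44, 95% interval -3.26 to -1.16; edgeR adjusted p = 0.112; DESeq2 adjusted p = 0.0444). The 2 arms come from 1 precursor, so their agreement is not a pair of separate signals. Non-overlapping libraries were not rare: 5.61% of tested miRNAs were lower and 15.9% higher in KO without overlap (21.5% in all). Of the 7 tested members 2 were lower and 1, miR-34c-3p, was higher. miR-449a-3p and miR-34c-3p each passed the filter on low counts only through the genotype where they are higher. Their lack of overlap is therefore a description.

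The other measurable product of the intron, miR-449c-5p, differed less. It stood at 7.21, 6.67 and 4.71 CPM in WT and at 5.75, 3.76 and 2.68 CPM in KO. KO library 4 lay above WT library 3, so the groups overlapped. The log2 fold was -0.61 (SE 0.34, 95% interval -1.41 to 0.18; edgeR adjusted p = 0.56), and whether this differs from the fold of miR-449a-5p was not tested. miR-449c-3p, the opposite arm, which is no member, had 6 counts over all libraries. miR-449b, at 0 counts in every KO library, gave no fold.

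miR-34a-5p, the p53-linked guide with the most counts in the family, had overlapping libraries in the 2 genotypes. It stood at 68.4, 57.5 and 85.3 CPM in WT and at 62.9, 46.1 and 74.0 CPM in KO. The lowest and the highest library of the family's main guide were KO library 5 and WT library 3, and the groups overlapped widely. The log2 fold was -0.21 (SE 0.25, 95% interval -0.81 to 0.39; edgeR adjusted p = 0.814), an interval that leaves room for changes of either sign. The 3p arm of the hairpin, no member, stood at 0.564 and 0.613 CPM.

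The miR-34b/c pair was sparse, apart from miR-34c-5p, and none of its 3 tested members passed the test. miR-34c-5p stood at 7.38, 5.88 and 11.5 CPM in WT and at 7.97, 4.25 and 8.32 CPM in KO. Its libraries followed the same order as those of miR-34a-5p within each genotype, highest in WT library 3 and KO library 6 and lowest in WT library 2 and KO library 5. The log2 fold was -0.27 (SE 0.36, 95% interval -1.12 to 0.59; edgeR adjusted p = 0.837). miR-34b-3p had 6 to 19 counts per library in WT and 8 to 19 in KO, with a log2 fold of -0.01 (SE 0.53). miR-34b-5p, left out of the test by the filter, had 7, 16 and 6 counts in WT and 8, 1 and 7 in KO. miR-34c-3p was the 1 member higher in KO in every library, at 11, 12 and 13 counts against 8, 1 and 7 in WT, a log2 fold of 1.08 (SE 0.69; edgeR adjusted p = 0.598). It rested on 52 counts in all, and without WT library 2, with 1 count, the log2 fold was 0.47. miR-34c-3p passed the filter on low counts only through the KO libraries, where it is higher, so its fold is a description.

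**Figure D2:**
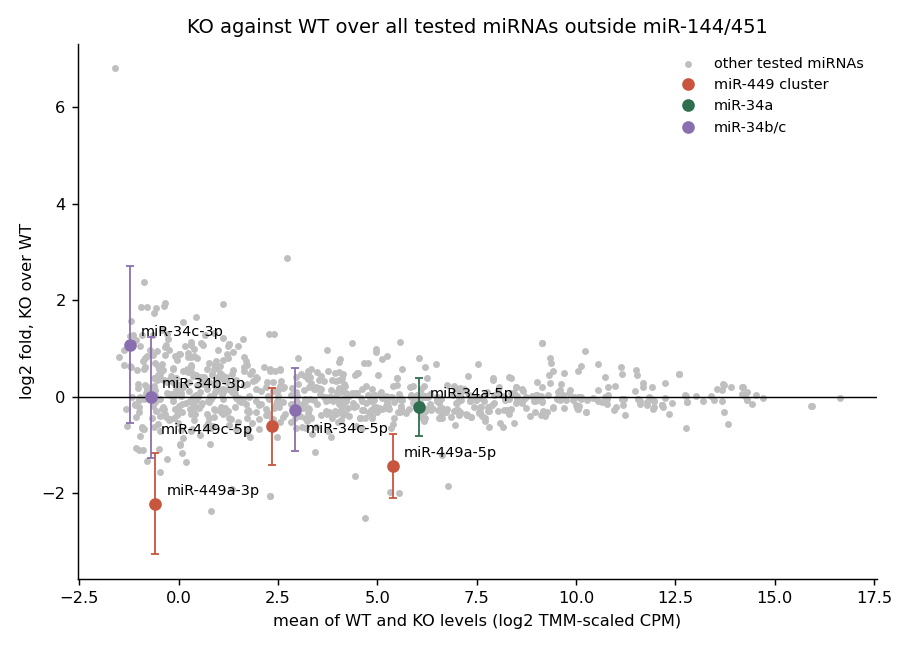
Log2 fold of KO over WT against the mean level (TMM-scaled CPM, on a log2 axis) of 873 miRNAs outside the deleted locus (grey) and the 7 tested members (coloured by genomic group, bars are 95% intervals). miR-449a-5p at -1.43 and miR-449a-3p at -2.21 have intervals below 0, and the other members have intervals that cross 0. miR-449a-3p passed the filter on low counts through its WT libraries only.

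Set against miR-34a-5p within each library, a comparison that needs no scaling factor, miR-449a-5p was about as abundant in WT libraries 1 and 2 and scarcer everywhere else. WT libraries 1 to 3 had 0.990, 1.14 and 0.595 counts of miR-449a-5p per count of miR-34a-5p, and KO libraries 4 to 6 had 0.463, 0.513 and 0.212. Every KO library lay below every WT library, WT library 3 and KO library 5 being the nearest. On the log2 scale, with 1 added to each count, the mean difference of KO from WT was -1.25. The exact two-sided permutation p was 0.1, the lower limit for 3 libraries a group, and 0.4 after Benjamini-Hochberg adjustment over the 8 ratios tested, so the design cannot reach 0.05.

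Against miR-34c-5p the picture was the same in direction but the libraries overlapped. The counts of miR-449a-5p were 9.17, 11.2 and 4.41 times those of miR-34c-5p in WT and 3.66, 5.56 and 1.88 times in KO, a log2 difference of -1.19 (exact two-sided permutation p = 0.2, adjusted p = 0.4). For miR-449c-5p the log2 differences were -0.43 against miR-34a-5p and -0.38 against miR-34c-5p (exact permutation p = 0.5 and adjusted p = 0.571 for both), with overlapping libraries. miR-34c-5p against miR-34a-5p, the pair of p53-linked guides from different chromosomes, gave a ratio of 0.102 to 0.135 in WT and 0.0923 to 0.127 in KO, a log2 difference of -0.06 (exact permutation p = 0.8, adjusted p = 0.8). That ratio spanned a narrower range than any of the 4 ratios with a miR-449 miRNA.

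As a share of the 6 guide arms together (miR-449a-5p, miR-449b, miR-449c-5p, miR-34a-5p, miR-34b-5p and miR-34c-5p), the miR-449 cluster made up 49.6%, 53.1% and 36.4% in WT libraries 1 to 3. It made up 32.9%, 35.2% and 18.2% in KO libraries 4 to 6. The Wilson 95% intervals of the nearest libraries, 34.7% to 38.1% in WT library 3 and 32.8% to 37.8% in KO library 5, overlapped. miR-34a-5p took 42.1% to 55.9% of this pool in WT and 59.2% to 73.3% in KO. The pool as a whole stood at 151.0, 136.7 and 152.5 CPM in WT and 106.2, 77.8 and 100.9 CPM in KO. As a plain share of all miRNA counts it was 0.0122% to 0.0133% in WT and 0.00854% to 0.0130% in KO, and there the groups overlapped. The totals behind these shares include the products of the deleted locus, 17.6% to 24.1% of counts in WT and 0.0214% to 0.0231% in KO. That lowers the share of every other miRNA in WT, so the plain shares of the genotypes are not on an equal footing.

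**Figure D3:**
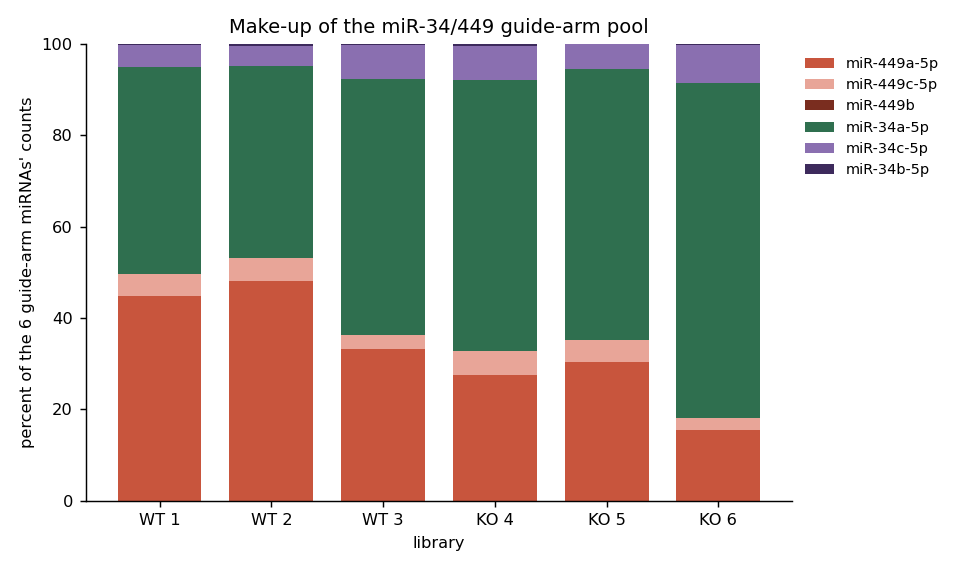
Share of each guide arm in the summed counts of the 6 guide arms (percent, linear axis from 0), 1 bar per library. miR-449a-5p takes 33.3% to 48.2% of the pool in WT and 15.5% to 30.4% in KO.

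None of the 3 ratios between the arms of a hairpin passed the test, and each rested on few counts of the rarer arm. For miR-449a the counts of the 5p arm were 61.9, 56.8 and 48.3 times those of the 3p arm in WT and 82.6, 214 and 68.2 times in KO, where the 3p arm had 7, 2 and 6 counts. These ratios did not overlap, but with 1 added to each count they did, and the mean log2 difference was 0.67 (exact two-sided permutation p = 0.2). That value depended on the added count and on KO library 5: it was 0.80 (exact permutation p = 0.1) with 0.5 added, 0.0883 (exact permutation p = 0.9) with 5 added, and 0.30 without that library. For miR-34c the 5p arm had 16.9, 142 and 32.9 times the counts of the 3p arm in WT and 14.4, 6.42 and 16.7 times in KO, a log2 difference of -1.55 (exact permutation p = 0.2), and the value of 142 rested on 1 count of the 3p arm. Without that library, WT library 2, the difference was -0.96, and with 5 added to each count it was -1.03. For miR-34b neither arm dominated in all libraries, with ratios of 0.316 to 1.17 in WT and 0.125 to 0.583 in KO (log2 difference -0.96, exact permutation p = 0.3). It was -0.55 with 5 added to each count or without KO library 5, and -1.53 without WT library 3. Adjusted over the 8 ratios the p with 1 added were 0.4 for miR-449a, 0.4 for miR-34c and 0.48 for miR-34b.

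Levels of hepatocyte miRNAs differed several-fold between libraries of a genotype, and the library with the most of them stood apart for both main guides of the family. The 5 hepatocyte miRNAs (miR-122-5p, miR-122-3p, miR-192-5p, miR-194-5p and miR-802-5p) summed to 34270, 56532 and 133076 CPM in WT libraries 1 to 3 and to 42683, 49638 and 103310 CPM in KO libraries 4 to 6. WT library 3 and KO library 6, the highest of each genotype, held the most miR-34a-5p and the least miR-449a-5p of their genotype. At these high hepatocyte levels miR-449a-5p stood at 50.8 CPM in WT library 3 and 15.7 CPM in KO library 6, and at the lower ones at 65.8 to 67.7 CPM in WT and 23.6 to 29.1 CPM in KO.
With the log2 level of miR-122-5p, the main hepatocyte miRNA, as a covariate, a fit chosen after seeing the data, miR-449a-5p was lower in KO, with a log2 fold of -1.48 (SE 0.18; edgeR adjusted p = 0.00843). That fit called 16 miRNAs (1.83%): 15 higher in KO (1.72%) and, as the 1 lower (0.115%), miR-449a-5p. The values for miR-449a-3p, miR-449c-5p and miR-34a-5p in that fit were -2.21, -0.67 and -0.19 (adjusted p = 0.072, 0.21 and 0.615).

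**Figure D4:**
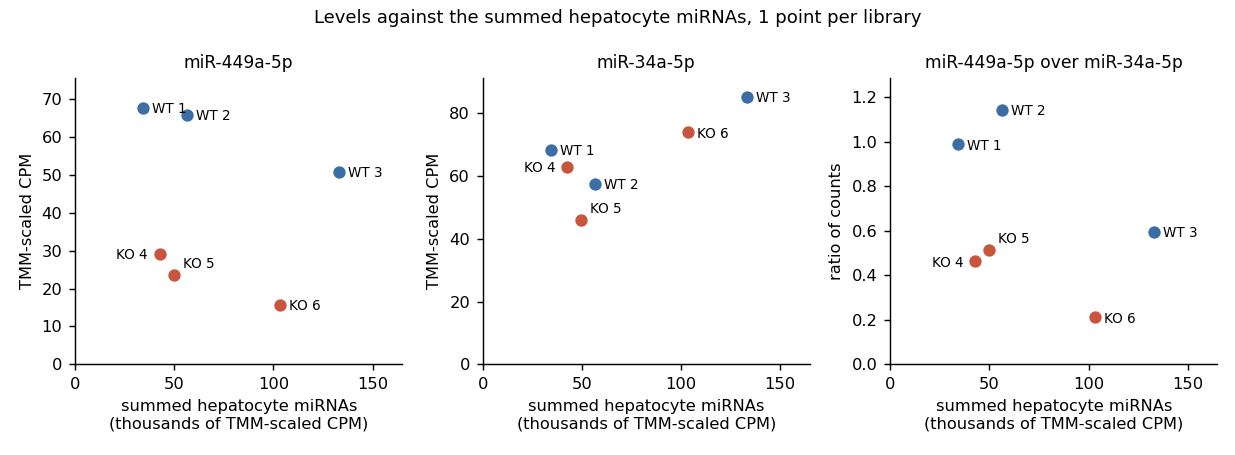
Levels of miR-449a-5p and miR-34a-5p (TMM-scaled CPM) and the ratio of their counts, against the summed level of 5 hepatocyte miRNAs (TMM-scaled CPM, in kilo-CPM on the axis), 1 point per library (WT blue, KO red). The KO points of miR-449a-5p, at 15.7 to 29.1 CPM, lie below all WT points at low and at high hepatocyte levels.

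For each list of cell type markers the summed levels of the genotypes overlapped, and each marker found in the table had counts. The 9 epithelial miRNAs, a list relevant because miR-449 is known from ciliated epithelia, summed to 1504 to 2230 CPM in WT and 1170 to 1751 CPM in KO, highest in WT library 3 and KO library 6. Of these 9, 7 stood below 0 on the log2 fold scale and 2 above (median -0.25). edgeR called 0, with 0 at an unadjusted p under 0.05, against 0.458% and 11% of all tested miRNAs. DESeq2 and limma-voom called 0, against 0.772% and 0.573% of theirs. Among the 9 epithelial miRNAs miR-203-3p, named after its values were seen, had KO libraries of 84.7 to 92.8 CPM. All lay below its WT libraries of 95.7 to 119.8 CPM. Its log2 fold was -0.25 (SE 0.17; edgeR adjusted p = 0.614). The libraries of the other epithelial miRNAs overlapped, and of all tested miRNAs 5.61% were lower in KO without overlap. WT library 1 stood apart in muscle and neural miRNAs, with summed levels of 422.8 and 508.6 CPM against 14.0 to 87.8 and 20.5 to 113.7 CPM in the other libraries. Without that library the log2 fold of miR-449a-5p was -1.35 (edgeR adjusted p = 0.26). The 3 erythroid miRNAs found of 4 listed summed to 132394 to 200056 CPM in WT and 149866 to 179984 CPM in KO, and the 3 pan-blood and myeloid ones to 43899 to 54487 and 36441 to 54770 CPM. Of all these marker lists 0 miRNAs passed the edgeR test, against 0.458% of all tested miRNAs. DESeq2, which called 0.772% of its miRNAs, called 1 here, the hypoxia-induced miR-210-3p of the erythroid list (log2 fold 0.95, SE 0.16). The part of these cell types in the level of miR-449a was not tested.

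The context lists of other miRNAs linked to p53 or E2F held no miRNA called by edgeR, which called 0.458% of all tested miRNAs. DESeq2 called 0.772% and limma-voom 0.573% of theirs. Of 8 p53-linked miRNAs outside the family 0 passed the edgeR test, 1 was above and 7 were below 0 (median log2 fold -0.14). At an unadjusted edgeR p under 0.05 there was 1, miR-107-3p, against 11% of all tested miRNAs. DESeq2 and limma-voom called 0. On the log2 fold scale miR-16-5p, a cell-cycle restraining miRNA, stood at -0.03 (SE 0.14), miR-107-3p at 0.46 (SE 0.10) and miR-192-5p at -0.22 (SE 0.43). miR-103-3p, which is not on this list, had nearly the same counts as miR-107-3p in every library and also a log2 fold of 0.46. Whether these miRNAs shared reads was not tested, so the value of miR-107-3p may not be its own. The fold of the p53-linked list furthest from 0, noted after its values were seen, was that of miR-215-5p at -2.52 (SE 1.56). It had 126.4 CPM in WT library 1 and 2.07 to 12.9 CPM in the other libraries. Of 12 E2F-linked miRNAs, mostly of the miR-17-92 and miR-106b-25 clusters, 0 passed by edgeR, DESeq2 or limma-voom and 0 at an unadjusted edgeR p under 0.05, with 2 above and 10 below 0 (median -0.08). miR-16-5p is on this list too. After it the most abundant were miR-25-3p and then miR-93-5p, with log2 folds of -0.15 (SE 0.22) and 0.10 (SE 0.15). The tested miRNAs nearest to the miR-449 hairpins on chromosome 13 within 10 Mb, miR-582-5p and miR-582-3p, stood at -0.22 (SE 0.31) and -0.32 (SE 0.26). Tested miRNAs within 10 Mb of Mir34a and of Mir34b had median log2 folds of -0.51 (6 miRNAs) and -0.66 (3 miRNAs).

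The shape of the miR-449a-5p values over the 6 libraries was closest, within the family, to that of its intron neighbour. The likeness was measured as the root mean square difference of log2 levels, each centred on its mean over the 6 libraries, among 855 miRNAs with counts in every library, as a description. miR-449c-5p lay at 0.42, and only 1 miRNA outside the family, miR-677-3p, lay closer, at 0.40. The next were miR-5119 (0.43), miR-5099 (0.44), miR-466h-3p of the rodent Sfmbt2-type families (0.48) and miR-363-3p of the miR-106a-363 cluster (0.49). These 5 miRNAs had log2 folds of -0.71, -0.66, -0.65, -0.67 and -0.62, all nearer to 0 than that of miR-449a-5p. miR-449a-3p, the other arm of the same hairpin, lay further off, at 0.70 (rank 134 among the 855). miR-34a-5p lay at 0.80 and miR-34c-5p at 0.85.

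For miR-34a-5p the distances were smaller, and the nearest were other miRNAs. Its libraries spanned 46.1 to 85.3 CPM, against 15.7 to 67.7 CPM for miR-449a-5p. The measure is not scaled for spread, so a flatter shape gives smaller distances. The distances of the 2 miRNAs can therefore not be compared. The nearest were miR-503-3p (0.07), miR-199a-5p, a mesenchymal miRNA (0.11), miR-6516-3p (0.14), miR-10a-5p of a Hox cluster (0.15) and miR-330-3p (0.15). miR-503-3p stood at 20.9, 17.0 and 24.6 CPM in WT and 18.3, 14.8 and 20.3 CPM in KO, in the same order of libraries as miR-34a-5p within each genotype. miR-34c-5p, at 0.18, ranked 15 among the 855 for likeness to miR-34a-5p.

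Over the alternatives the folds of the miR-449 miRNAs kept their sign, and the calls did not. miR-449a-5p lay between -1.72 and -1.05 in 14 alternative fits, miR-449a-3p between -2.69 and -1.85 and miR-449c-5p between -1.03 and -0.23. Edge cases were the fit without a scaling factor, which gave miR-449a-5p a log2 fold of -1.05 where the median of all tested miRNAs was 0.34, and the fit without KO library 4, which gave -1.72. The folds of miR-34a-5p and miR-34c-5p were -0.39 to 0.16 and -0.51 to 0.10, above 0 only without a scaling factor.

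**Figure D5:**
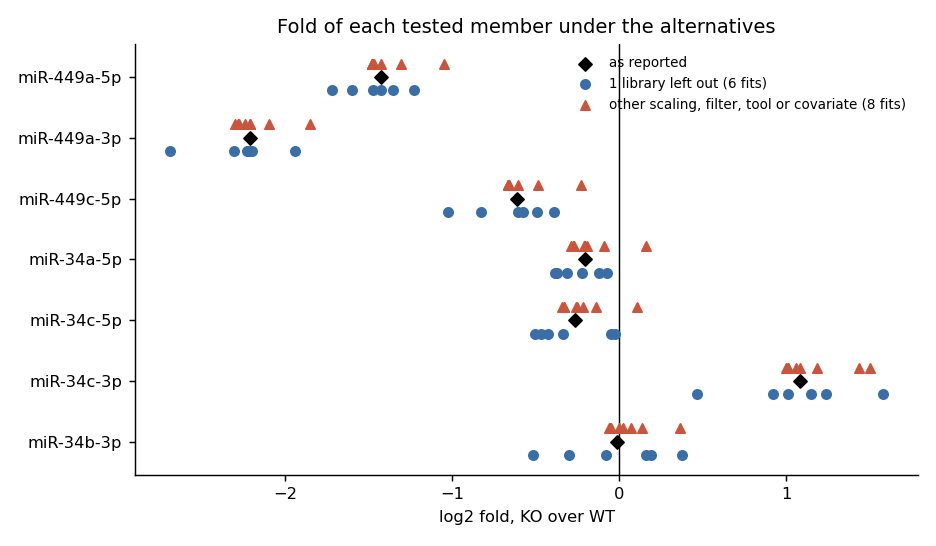
Log2 fold of KO over WT for the 7 tested members as reported (diamonds), with each library left out (circles, 6 fits) and with another scaling, filter, tool or covariate (triangles, 8 fits). The 3 miR-449 rows stay below 0 in every fit, miR-449a-5p between -1.72 and -1.05, and miR-34b-3p lies on both sides of 0.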

How the data were processed

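Small RNA libraries were made from total RNA of fetal liver cells with a NEXTflex small RNA kit, per the labels. The design text of the series names another assay, HITS-CLIP. The data were treated as small RNA sequencing of total RNA, following the sample labels. The authors deposited 1 table with raw read counts per mature miRNA and a percent column per library, which equals the count over the library's total of listed miRNAs. Reads were trimmed with cutadapt, per the submitters' processing notes; the aligner, the build and the miRNA release are not given in the sources used here.

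Counts were fitted over the whole table with edgeR 4.0.16 in R 4.3.3 (quasi-likelihood F-test, TMM scaling, filterByExpr, which kept 876 of 1626 miRNAs), with Benjamini-Hochberg adjustment over all tested miRNAs and a threshold of 0.05. SE is the absolute log2 fold over the square root of F, and 95% intervals use the fit's degrees of freedom. TMM factors were 0.874 to 1.22. DESeq2 1.42.0, limma-voom (limma 3.58.1), other scalings, no filter, and leaving out each library were alternatives. Log2 ratios of members had 1 added to each count and were tested by exact permutation, two-sided, over 20 assignments (scipy 1.17.1). Intervals of counts are exact Poisson, those of shares Wilson; with no molecular identifiers both cover counting error only, and 3 counts were the limit for a count of 0. The edgeR fit was tested on simulated data.

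Named were all members, miRNAs with a member's seed, the 5 miRNAs nearest in shape to miR-449a-5p and to miR-34a-5p, and up to 3 of each context list. The members and lists were chosen with earlier results of these data known. miR-582 and the miRNAs near Mir34a and Mir34b were added for their position after their values could be seen. The miRNAs outside the family with near-equal counts were named after their values were seen.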

Additional observations from a re-analysis of the deposited data

How the results depend on the processing

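No paired analysis was possible because WT libraries are numbered 1 to 3 and KO libraries 4 to 6, with no shared number. Outside the deleted locus, 4 miRNAs were called as reported. The count was 1 with RLE scaling, 1 with upper-quartile scaling, 1 with the locus removed before scaling, 58 with no scaling factor, 12 with DESeq2 and 16 with miR-122-5p as covariate, and 0 to 1 with a library left out (0 without KO library 5). Of the family, 0 members were called as reported, 2 with DESeq2 and 1 with the covariate, and 0 in the 6 fits that left out a library. The edgeR adjusted p of miR-449a-5p with a library left out lay between 0.188 and 0.506. The cause of these changes was not tested, except that fewer libraries enter when 1 is left out. With no scaling factor the log2 folds of miR-34a-5p, miR-34c-5p and miR-34b-3p turned to 0.16, 0.10 and 0.37. miR-34b-3p was also above 0 with upper-quartile scaling (0.14), without the filter (0.0198) and with the covariate (0.0727), and spanned -0.52 to 0.37 with a library left out. The log2 ratio differences of miR-34c-5p to miR-34a-5p (-0.16 to 0.0615) and of miR-449c-5p to miR-34c-5p (-0.83 to 0.0559) also changed sign with a library left out, while the other 6 ratios kept theirs under all 8 alternatives, over a range for the arms of miR-449a of 0.0883 to 0.94. Depth limits miR-449b, miR-34b and the 3p arms, whose counts per library were 0 to 28.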
